A study of Mus musculus with 6 samples.

Results

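The nuclear genes for subunits of the mitochondrial respiratory chain and of ATP synthase were examined in colonic epithelium of wild-type and miR-31 knockout mice. Genes were taken by symbol from the probes that matched a mouse RefSeq gene: Ndufa, Ndufb, Ndufc, Ndufs and Ndufv for complex I, Sdha to Sdhd for complex II, Uqcr for complex III, Cox4 to Cox8 for complex IV and Atp5 for complex V, without the Ndufaf assembly factors. The rule found 84 genes, measured by 106 of the 56605 probes on the array. Complex I gave 38 of these genes, complex II 4, complex III 8, complex IV 17 and complex V 17. Of the 84 genes, 61 entered a test that ran over 27916 features. RNA came from 3 wild-type and 3 miR-31 knockout mice, all male, with 1 Agilent 1-colour array per mouse, and the series asks how gene expression in the colon differs without miR-31. Per the study's design note the epithelium was separated by flow. The gate used, the strain, the age, the way the knockout was made and whether it acts in every cell are not given in the sources used here. Replicates 1 to 3 of each genotype are called WT1 to WT3 and KO1 to KO3.

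Loss of miR-31 itself was not checked here. The sequences absent by genotype are the mature arms of miR-31, shown because they define the groups, from RefSeq on the minus strand of GRCm38.p6 at chr4:88910614-88910635 for the 5p arm and chr4:88910577-88910599 for the 3p arm. They are written 5′ to 3′ with the seed, bases 2 to 8, in capitals.
miR-31-5p: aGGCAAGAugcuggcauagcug
miR-31-3p: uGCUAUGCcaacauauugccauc

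The respiratory chain passes electrons from NADH (complex I) and succinate (complex II) through complex III to complex IV, which reduces oxygen, and complexes I, III and IV pump protons across the inner mitochondrial membrane. ATP synthase, complex V, uses the proton gradient to make ATP. Most subunits are encoded in the nucleus and a small core in mitochondrial DNA, and absorptive cells of the colon draw much of their energy from oxidising butyrate through this chain. Several complex IV subunits exist as a widely expressed form and a form typical of muscle, lung or testis.

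Values are log2 processed signals relative to the 75th percentile of the array, so 0 is that percentile. A probe's signal depends on its sequence, so signals were compared between mice and not between genes. The 75th percentile lay between 3005 and 3539 signal units, the share of probes well above background ran from 66.6% to 75.6%, and 0 spots were saturated. All 6 arrays were scanned at 1 time on 1 slide, with wild-type samples in slide row 2 and knockout samples in row 1, so slide row and genotype cannot be told apart. Of the values of subunit probes, 28.5% came from spots that the extraction software had marked as non-uniform or outlying, against 10.9% over all probes. Between 10.4% (WT3) and 42.5% (KO1) of the subunit probes were marked on an array. The test left marked values out, and a second set of values kept them. All 15 epithelial marker genes were well above background, and the log2 of their summed signals was 7.38 to 7.55 in wild-type and 7.32 to 7.51 in knockout mice. Linear signals were summed before the log was taken, so the brightest genes of a marker list set most of its value. Markers of other cells were measured too. They were 8 of 8 smooth muscle genes (4.03 to 4.31 against 3.76 to 4.31) and 11 of 12 T cell genes (2.0 to 2.65 against 2.11 to 2.89). Macrophage genes were measured for 8 of 9 (2.40 to 2.45 against 2.33 to 2.38), with Adgre1 not well above background. In such bulk samples, fewer cells of a type and less RNA per cell cannot be told apart.

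Subunit genes differed little between the genotypes. None of the 61 tested genes had an adjusted p under 0.05 (limma, Benjamini-Hochberg over all features), where 0.208% of all 27916 features did, and the lowest adjusted p of a subunit gene was 0.397. At an unadjusted p under 0.05 there was 1 gene, Ndufa4l2, with a lower signal in knockout, against 10.7% of all features in either direction. By direction, 0 genes were higher and 1 lower, against 3.18% and 7.55% of all features. The log2 changes, knockout minus wild-type, were positive for 30 genes and negative for 31, with a median of -0.01 against -0.06 over all features. Of all features, 38.5% were positive. This split moved with the scaling: 44 of 61 were positive when the array median was subtracted instead (47.3% of all features) and 38 of 61 after quantile normalization (44.8%). With the slide column added to the model as a covariate, 17 of 61 were positive (36.7% of all features). WT3 and KO3 each stood alone in their slide column, so the genotype change in that fit rests on WT1, WT2, KO1 and KO2 only. The median size of the change was 0.05, against 0.16 over all features. It was 0.09 over the 6646 features whose mean lay above the 75th percentile, a set chosen after the values were seen because 56 of the 61 subunit genes lie there, and called the bright features here. Of the bright features, 2.56% had an unadjusted p under 0.05. For 56 of 61 genes the change was under 0.2 in size, or 91.8%, against 59.4% of all features and 84.9% of the bright ones.

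**Figure D1:**
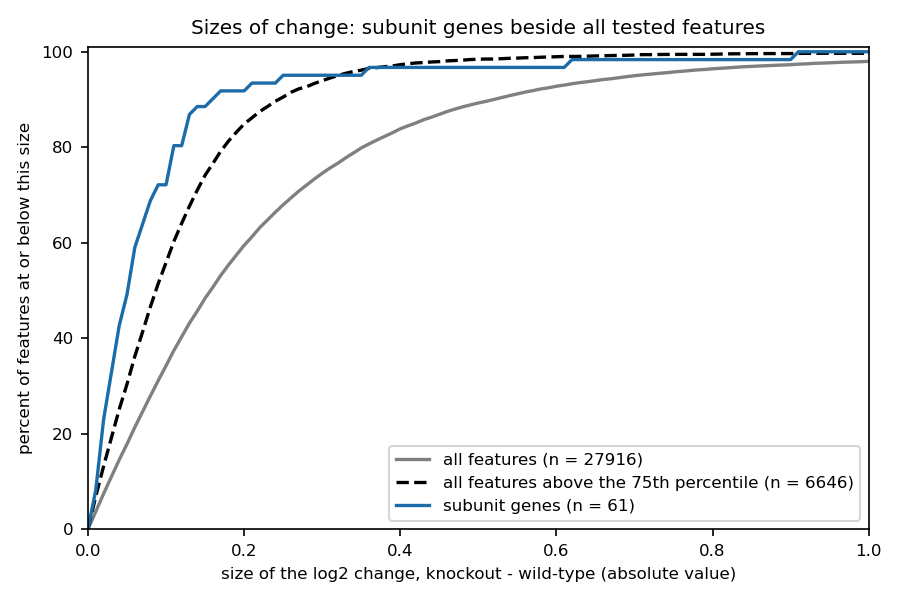
Cumulative share (percent) of features against the absolute log2 change between knockout and wild-type, for the 61 subunit genes, all 27916 tested features and the 6646 features with a mean above the 75th percentile. The curve of the subunit genes rises soonest, with 91.8% under 0.2 against 59.4% of all features and 84.9% of the bright ones.

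The precision of these small changes was set by 2 or 3 measured mice a group, with a median standard error of 0.13. The 95% interval lay within a 1.5-fold change either way for 55 of 61 genes, or 90.2%, against 50.8% of all features and 83.5% of the bright ones. It lay within 2-fold for 59 of 61, the exceptions being Ndufa4l2 and Cox8b. Groups did not overlap for 4 genes, or 6.56%, against 18.0% of all features and 15.4% of the bright ones. Sdha, Ndufa10 and Cox5a were higher in knockout, where 5.56% of all features were, and Ndufc2 was lower, where 12.5% were. Each of them had at least 1 array left out as marked. The count of genes without overlap rested on single mice: 16 of 47 genes did not overlap without WT3, where 38.3% of all features did not, 10 of 54 without WT1 (23.5% of all features) and 8 of 60 without KO1 (28.0%).

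**Figure D2:**
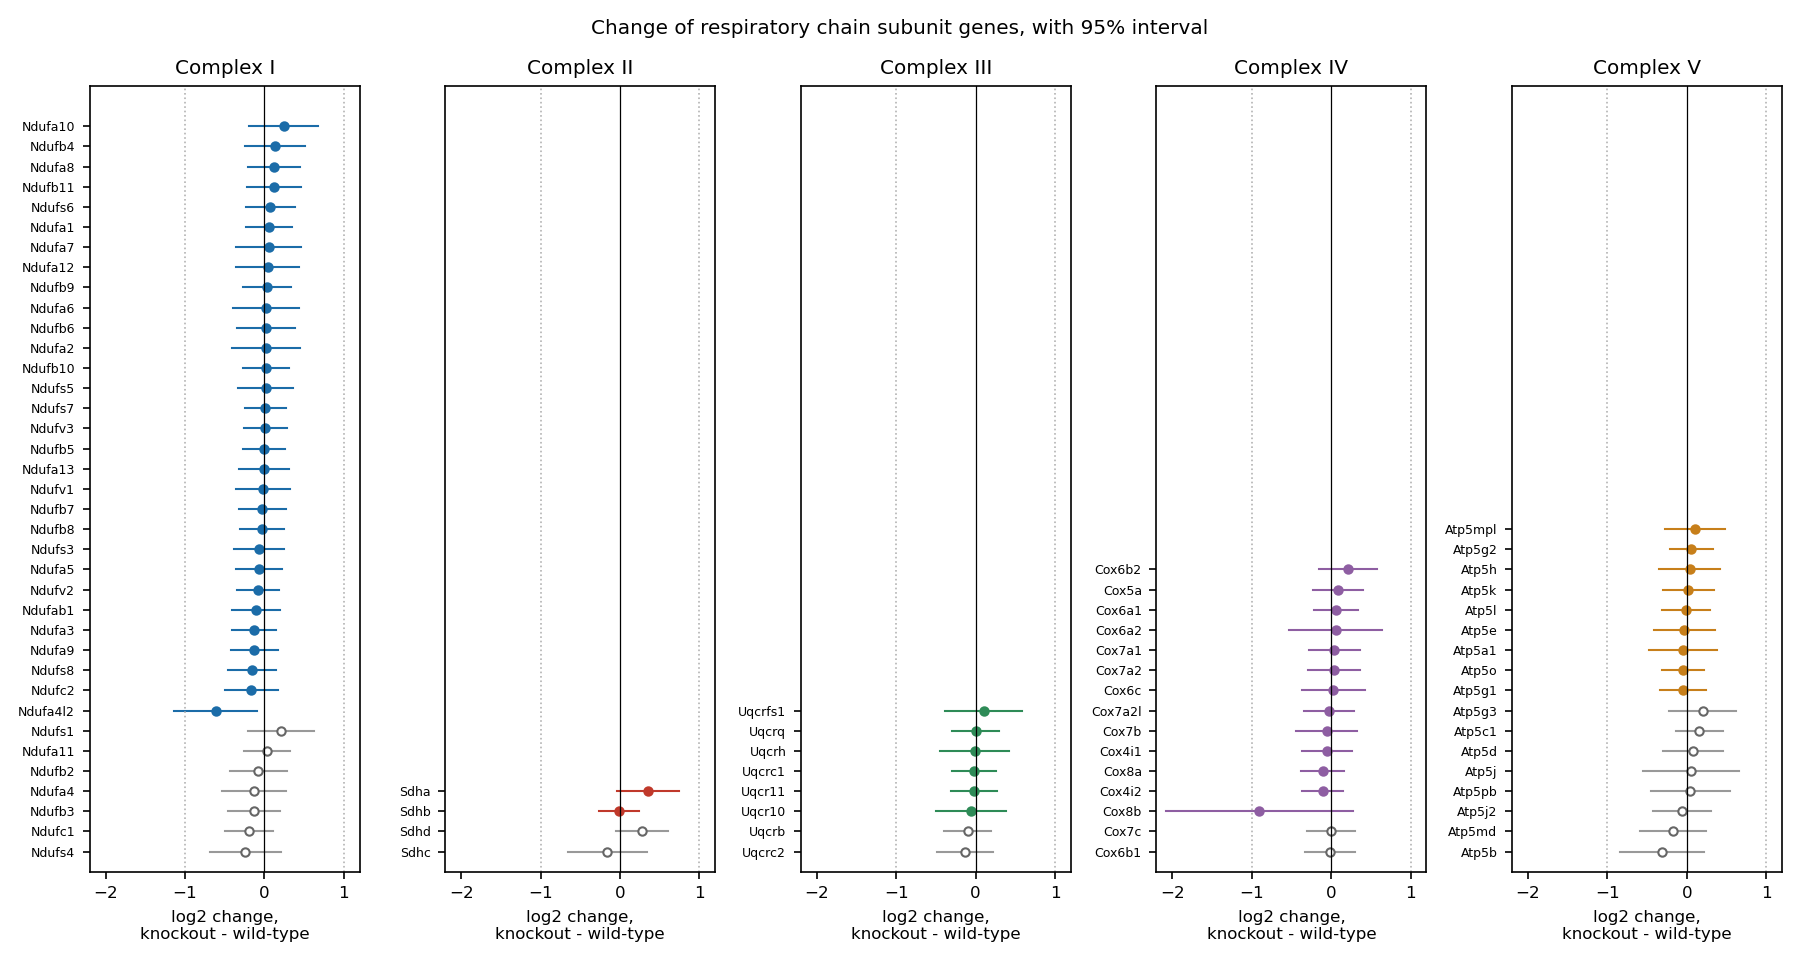
Log2 change, knockout minus wild-type, of subunit genes by complex, with the 95% interval (limma). Filled points are tested genes, and open grey points are the 21 genes with too few unmarked arrays, shown with marked spots kept. Dotted lines mark a 2-fold change, and the intervals of Cox8b and Ndufa4l2 alone among tested genes pass them.

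Complex I, the NADH dehydrogenase, had 31 tested genes with a median change of 0.01, 16 of them positive and 15 negative. Ndufa4l2, a hypoxia-induced relative of Ndufa4, had the smallest p. Its signal was -5.44, -5.39 and -5.74 in WT1 to WT3 and -6.41, -6.33 and -5.67 in KO1 to KO3. KO1 and KO2 lay below every wild-type mouse, while KO3 lay within their range. The change was -0.61 ± 0.22 (SE), with an unadjusted p of 0.0278, an adjusted p of 0.397 and a 95% interval of -1.13 to -0.09. This probe was near background, well above it on 5 of 6 arrays and not on KO1. Under normexp background correction the change was -0.22 (unadjusted p = 0.133), and it was -0.84 without KO3 and -0.48 without KO1. Ndufa4, whose protein is now counted in complex IV, had too few unmarked arrays. With marked spots kept its signal was 2.85, 2.62 and 2.38 in wild-type and 2.48, 2.68 and 2.28 in knockout mice, and the groups overlapped (-0.13 ± 0.17).

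Core subunits of complex I carry its electron path, and those tested and named here did not pass the test. Ndufv1, which binds NADH and the flavin, had a change of -0.02 ± 0.14. Ndufs7, which holds the last iron-sulfur cluster before quinone, was at 0.01 ± 0.11. Ndufs8, another iron-sulfur subunit, was at -0.16 ± 0.13, with an adjusted p of 0.702. Ndufs1, the largest subunit of the peripheral arm, was not tested and stood at 0.20 ± 0.18 with marked spots kept.

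Among the accessory subunits of complex I, Ndufa10 had the most positive change. Its signal was 2.23 and 2.06 in WT2 and WT3 and 2.3 and 2.47 in KO2 and KO3, with WT1 and KO1 marked, so the non-overlap rests on 2 mice a group. The change was 0.24 ± 0.17 (adjusted p = 0.670). With marked spots kept, this probe gave -0.07 and a brighter Ndufa10 probe 0.06. Ndufc2, a membrane-arm subunit, had 3.04 and 2.98 in WT1 and WT3 and 2.77, 2.97 and 2.80 in the knockout mice, a change of -0.16 ± 0.14 (adjusted p = 0.727). KO2 lay just below WT3, so a narrow gap separates the groups. Ndufa8 stood at 0.12 ± 0.14 and Ndufb4 at 0.13 ± 0.16. Of the other tested genes of this complex, the changes lay between -0.13 for Ndufa9 and 0.12 for Ndufb11.

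Complex II, succinate dehydrogenase, is also an enzyme of the tricarboxylic acid cycle. Sdha, its catalytic flavoprotein, had the most positive change of all tested subunit genes. Its signal was 2.44, 2.35 and 2.35 in WT1 to WT3 and 2.56 and 2.91 in KO2 and KO3, with KO1 marked and at 2.51 when kept. All knockout values lay above all wild-type values, and KO3 lay furthest out. The change was 0.36 ± 0.16, with an adjusted p of 0.502 and a 95% interval of -0.04 to 0.75, or 0.28 ± 0.15 with the marked spot kept. A further Sdha probe, unmarked on 2 arrays, gave 0.04 with marked spots kept.

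Sdhb, the iron-sulfur partner of Sdha, showed no such separation. Its signal was 2.56, 2.56 and 2.50 in wild-type and 2.46, 2.54 and 2.58 in knockout mice, a change of -0.01 ± 0.11 with an interval of -0.27 to 0.24. The membrane anchors Sdhc and Sdhd had too few unmarked arrays. With marked spots kept, Sdhd had 2.97, 3.23 and 2.93 in wild-type and 3.23, 3.45 and 3.27 in knockout mice (0.27 ± 0.14, adjusted p = 0.555). Its groups overlapped only through WT2, which lay just above KO1. Sdhc had 2.54, 2.18 and 2.26 against 2.03, 1.89 and 2.59, so the lowest and the highest of its values were both from knockout mice (-0.16 ± 0.21).

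**Figure D3:**
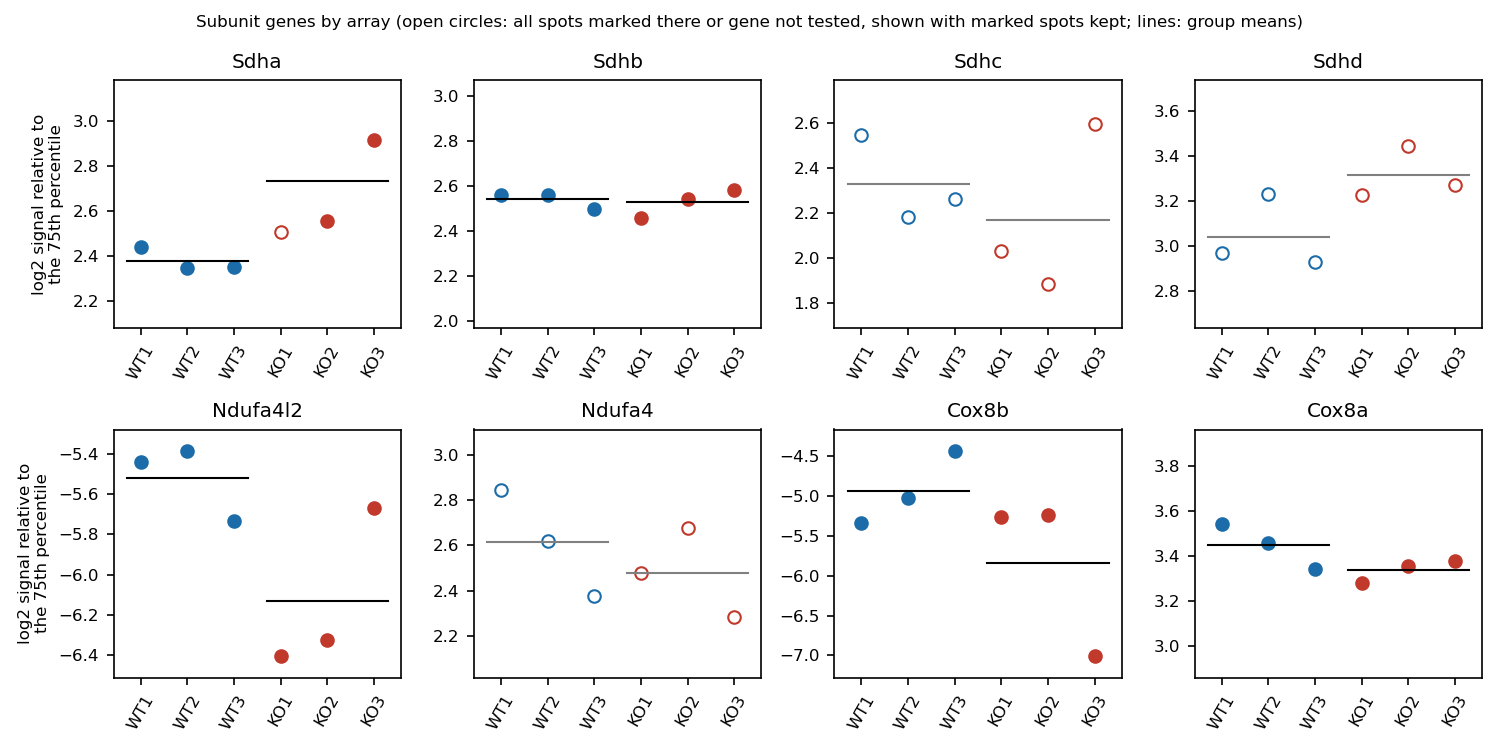
Log2 signal relative to the 75th percentile on each array for the 4 complex II genes, for Ndufa4l2 and Ndufa4 and for Cox8b and Cox8a. Lines are group means, and open circles are values with marked spots kept. Each panel has its own vertical range. KO3 is the highest array for Sdha and the lowest for Cox8b.

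Complex III, the cytochrome bc1 complex, had 6 tested genes with a median change of -0.02. The range ran from -0.06 ± 0.19 for Uqcr10 to 0.10 ± 0.20 for Uqcrfs1, the Rieske iron-sulfur protein. Uqcrc1, a core protein, was at -0.02 ± 0.12, and its interval of -0.29 to 0.26 lay within 1.5-fold. The small subunits Uqcr11, Uqcrh and Uqcrq had changes of -0.02 ± 0.12, -0.01 ± 0.17 and 0.00 ± 0.12. No gene of this complex had groups without overlap. Uqcrc2 and Uqcrb had too few unmarked arrays and stood at -0.13 ± 0.15 and -0.10 ± 0.12 with marked spots kept.

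Complex IV, cytochrome c oxidase, had 13 tested genes with a median change of 0.03, and its isoform pairs could be set side by side. Cox8b, the form of subunit 8 typical of heart, skeletal muscle and brown fat, had the largest change in size of any tested subunit gene. Its signal was -5.35, -5.02 and -4.44 in WT1 to WT3 and -5.27, -5.24 and -7.01 in KO1 to KO3. KO1 and KO2 lay among the wild-type mice, and KO3, the only array on which the probe was not well above background, lay far below them. The change was -0.90 ± 0.50, with an adjusted p of 0.567 and an interval of -2.08 to 0.27. It was -0.32 without KO3, -1.20 without KO2 and -0.66 without WT3. With the slide column as a covariate, a fit in which WT3 and KO3 do not inform the change, it was -0.07. Under normexp background correction it was -0.48, with an unadjusted p under 0.05 and an adjusted p of 0.598.

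Of 12 striated muscle markers 8 were detected, with Ckm, Myh1, Myh2 and Mb not well above background. The log2 of their summed signals was -1.09 to -0.80 in wild-type and -1.24 to -0.68 in knockout mice. The median change over the 8 tested striated muscle markers was -0.32, with 3 of 8 lower at an unadjusted p under 0.05, where 7.55% of all features were. The 7 tested smooth muscle markers had a median change of -0.30, with 7 of 7 negative and 2 lower at an unadjusted p under 0.05. Of 8 adipocyte markers 4 were detected, at -1.22 to -1.06 against -1.26 to -1.16. Plin1, Fabp4, Cfd and the brown fat gene Ucp1 were not well above background. The part of these cells in the Cox8b values was not tested.

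Cox8a, the widely expressed form, had 3.54, 3.46 and 3.34 in wild-type and 3.28, 3.36 and 3.38 in knockout mice, and the groups overlapped (-0.11 ± 0.11). Cox8c, a testis form, was not well above background on any of the 6 arrays, and neither was Cox7b2, also a testis form. Cox6a2, the heart and skeletal muscle form of subunit 6a, had -3.54, -4.13 and -4.08 against -3.50, -3.80 and -4.30, a change of 0.06 ± 0.25. Its widely expressed partner Cox6a1 was at 0.06 ± 0.12. Cox7a1, a muscle form, and Cox7a2, the widely expressed form, were both at 0.04 ± 0.13. Cox4i2, known from lung and from the response to low oxygen, had -0.41, -0.35 and -0.38 in wild-type and -0.56, -0.51 and -0.39 in knockout mice (-0.11 ± 0.11), and WT1 lay just below KO3. Cox4i1, which stabilises the core of the enzyme, was at -0.05 ± 0.13. Cox6b2, the testis form of subunit 6b, had -2.43, -2.50 and -2.14 against -2.13, -2.33 and -1.98, a change of 0.21 ± 0.15 (adjusted p = 0.676). Cox6b1, with too few unmarked arrays, was at -0.01 ± 0.13 with marked spots kept. Cox5a had groups without overlap, at 3.96, 3.88 and 3.91 against 4.04 and 3.97 in KO2 and KO3, but by only 0.09 ± 0.13 (adjusted p = 0.849). Cox5b is not analysed here.

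Complex V, ATP synthase, had 9 tested genes with a median change of -0.01, all under 0.2 in size. They ran from -0.05 ± 0.12 for Atp5g1, which encodes the membrane ring subunit c as does Atp5g2 (0.06 ± 0.11), to 0.10 ± 0.16 for Atp5mpl. Atp5a1, the catalytic-head alpha subunit, was at -0.04 ± 0.17. Atp5o, a subunit of the stalk that holds the head, was at -0.04 ± 0.11, and Atp5h, of the same stalk, at 0.04 ± 0.16. All 9 intervals lay within 1.5-fold, and no group pair was without overlap.

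Marked spots left 8 of the 17 genes of complex V untested: Atp5b, Atp5c1, Atp5d, Atp5g3, Atp5j, Atp5j2, Atp5md and Atp5pb. Besides those already named, the untested genes of complex I were Ndufs4, Ndufa11, Ndufb2, Ndufb3 and Ndufc1, and of complex IV Cox7c. With marked spots kept, the 21 genes ran from -0.31 to 0.27 with a median of -0.06, and 0 had an unadjusted p under 0.05. The lowest was Atp5b, the catalytic beta subunit, at 3.54, 3.14 and 3.53 against 3.53, 2.81 and 2.92 (-0.31 ± 0.22). Its 3 probes, aimed at the same transcript, gave -0.31, 0.34 and -0.29, so the sign depended on the probe. Over 82 subunit genes measured this way, 0 had an adjusted p under 0.05 (0.170% of 32275 features did), Ndufa4l2 alone had an unadjusted p under 0.05 (10.4% of features), and 5 did not overlap (15.5% of features). Sdha, Atp5a1 and Atp5c1 were higher in knockout (4.70% of features) and Ndufc1 and Ndufc2 lower (10.8% of features). Atp5a1 was measured here by a brighter probe than the one tested, and that brighter probe was unmarked on only 1 array. Of these 5, Sdha and Ndufc2 were also among the 4 genes without overlap when marked spots were left out. The interval lay within 2-fold for 80 of 82.

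For 20 genes the array held several probes. With marked spots kept, the probes of 9 of them had changes of opposite sign, and the gap between a gene's probes had a median of 0.13 and reached 0.65 for Atp5b. The median gap between probes of these 20 genes was larger than the median size of a change over the 82 genes with marked spots kept, 0.06. These are unlike measures. The gap is a difference between the changes of 2 or 3 probes, some of them marked on most arrays, and the size is that of a single change.

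Subunit genes of complexes I and III varied together from mouse to mouse. For complex V this held over the 6 genes complete with marked spots left out, but not over the 17 genes measured with them kept. Each gene's values were set against the midpoint of its genotype means and averaged over a complex. For complex I the averages were 0.12, 0.03 and -0.09 in WT1 to WT3 and -0.12, 0.02 and 0.04 in KO1 to KO3. The genotype means of complex I differed by -0.04, against standard deviations of 0.11 between wild-type and 0.09 between knockout mice. For complex III the averages were 0.06, 0.07 and -0.11 against -0.15, 0.03 and 0.09, and for complex V 0.10, 0.03 and -0.11 against -0.09, -0.01 and 0.09. WT3 and KO1 were the lowest mice in all 3 of these complexes. With marked spots kept they remained the lowest in complexes I and III, whereas the 17 genes of complex V averaged 0.04, -0.07 and 0.03 against 0.00, -0.03 and 0.03. The averages of complex IV were 0.06, -0.02 and 0.05 against -0.03, 0.03 and -0.10, with KO3 lowest. They include the Cox8b probe near background, which was at -7.01 in KO3 and -4.44 in WT3 and weighs heavily in a mean of 13 genes. No average was made without Cox8b, so this order cannot be read as that of the complex as a whole. The bright features as a whole went the same way as complex I but less far, at 0.04, 0.02 and -0.05 against -0.06, 0.03 and 0.01. The summed epithelial markers were also highest in WT1 (7.55) and lowest in KO1 (7.32), and their part in the subunit values was not tested.

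**Figure D4:**
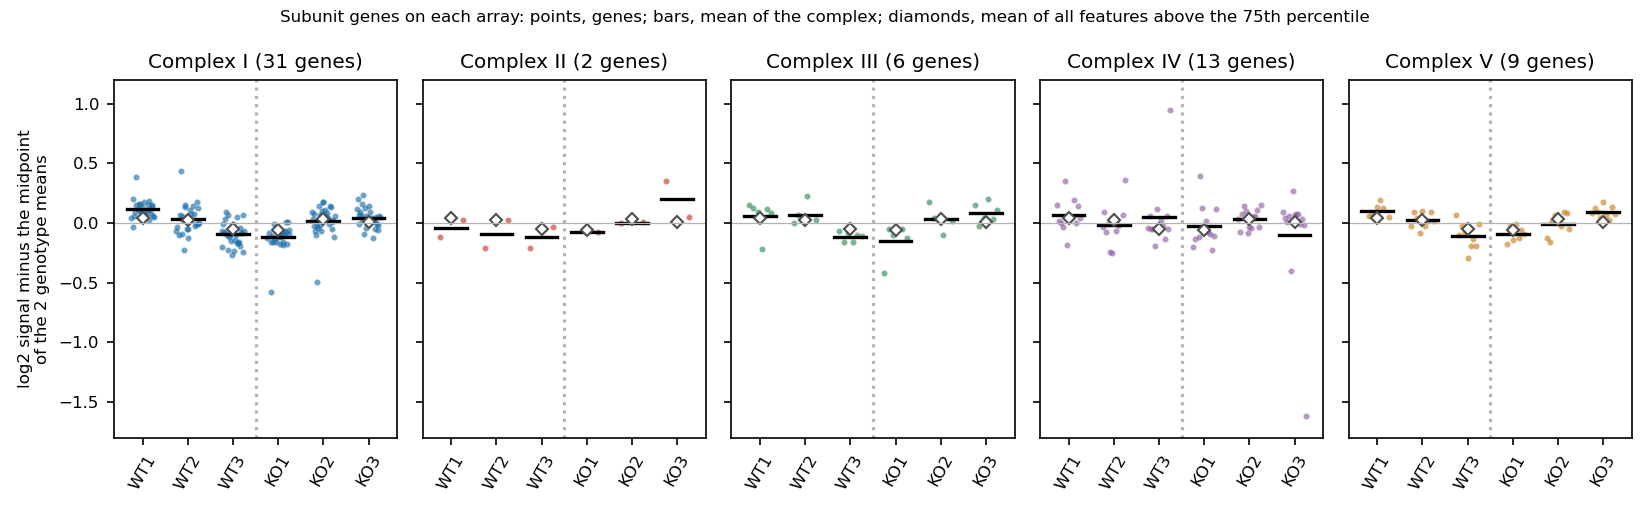
Log2 signal of each tested subunit gene on each array, minus the midpoint of its genotype means, by complex. Points are genes, bars the mean of the complex and diamonds the mean of all features above the 75th percentile. WT3 and KO1 are low in complexes I, III and V, and the lowest point of complex IV is Cox8b in KO3.

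Of the 42 genes measured on all 6 arrays, WT1 was the highest array for 20 and the lowest for 0, while KO1 was the lowest for 21 and WT3 for 14. The median pairwise correlation over the 6 arrays was 0.62 among these 42 genes, against 0.09 over 24064 features and 0.21 over the 4774 bright ones. By complex it was 0.68 for I (23 genes), 0.84 for III (4 genes), 0.70 for V (6 genes) and -0.03 for IV (8 genes). The 8 genes of complex IV include Cox4i2, Cox6a2, Cox6b2 and Cox8b, whose means lay below the 75th percentile. All tested genes of complexes III and V lay above it, so these sets differ in signal level too. With each genotype centred on its own mean it was 0.69 over the 42 genes, no lower than without centring. Correlation was lower with marked spots kept, at 0.29 over 82 genes, 0.49 for complex I, 0.65 for III, 0.10 for IV and -0.02 for V. Over all features it was 0.04. The gene sets differ from those above, so the fall was not measured in the same genes. The genes of 1 array share its RNA, labelling and scaling, and these correlations are descriptions.

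The promoters of subunit genes are known to hold sites for NRF1, for ETS factors such as GABPA and for YY1, which the symbol rule did not use. RefSeq windows of GRCm38.p6 from 250 bases before to 50 after a gene's start were found for 68 of the 84 genes, in 73 windows, and searched on both strands. The motifs searched are those in capitals in the sequences that follow: 10 letters for NRF1 (in Uqcrc1), 11 for YY1 (in Ndufs7) and CCGGAAG for ETS, which reads CTTCCGG on the other strand (in Cox8a). The NRF1 motif lay in 5 of 73 windows, or 6.85%, against 0.971% of all 32851 windows. The ETS motif lay in 17, or 23.3%, against 8.86%, and the YY1 motif in 4, or 5.48%, against 0.633%. All 4 genes with the YY1 letters, Ndufa9, Ndufs4, Ndufs6 and Ndufs7, were of complex I. At least 1 of the 3 motifs lay in 32.9% of subunit windows and 10.1% of all windows. A match of letters is a description and not a site. An example of each is given with the motif in capitals: Uqcrc1 (NRF1 at position 30 after the start, plus strand, chr9:108936398-108936697), Ndufs7 (YY1 at position 24 after the start, plus strand, chr10:80249199-80249498) and Cox8a (ETS on the opposite strand, at -5 and 32 from the start, minus strand, chr19:7217567-7217866). Cox8b (minus strand, chr7:140900397-140900696), the muscle-type gene with the largest change, is shown beside Cox8a because none of these letters lie in its window.
Uqcrc1: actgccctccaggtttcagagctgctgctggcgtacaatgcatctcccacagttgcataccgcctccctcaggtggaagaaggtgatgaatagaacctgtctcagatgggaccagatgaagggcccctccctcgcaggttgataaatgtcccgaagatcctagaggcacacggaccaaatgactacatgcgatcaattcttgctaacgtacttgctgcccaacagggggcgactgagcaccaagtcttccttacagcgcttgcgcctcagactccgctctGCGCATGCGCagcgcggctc
Ndufs7: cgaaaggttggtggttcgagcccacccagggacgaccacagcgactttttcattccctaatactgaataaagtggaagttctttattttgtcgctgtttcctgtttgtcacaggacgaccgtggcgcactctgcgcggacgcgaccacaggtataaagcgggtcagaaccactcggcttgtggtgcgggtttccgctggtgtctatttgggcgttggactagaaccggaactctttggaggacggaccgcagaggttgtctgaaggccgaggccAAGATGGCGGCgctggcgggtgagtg
Cox8a: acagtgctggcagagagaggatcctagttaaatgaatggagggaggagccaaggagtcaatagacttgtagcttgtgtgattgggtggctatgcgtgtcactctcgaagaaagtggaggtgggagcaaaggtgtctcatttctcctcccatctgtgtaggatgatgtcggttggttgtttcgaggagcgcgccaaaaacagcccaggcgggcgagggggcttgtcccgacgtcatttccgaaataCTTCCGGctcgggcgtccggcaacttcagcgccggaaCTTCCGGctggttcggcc
Cox8b: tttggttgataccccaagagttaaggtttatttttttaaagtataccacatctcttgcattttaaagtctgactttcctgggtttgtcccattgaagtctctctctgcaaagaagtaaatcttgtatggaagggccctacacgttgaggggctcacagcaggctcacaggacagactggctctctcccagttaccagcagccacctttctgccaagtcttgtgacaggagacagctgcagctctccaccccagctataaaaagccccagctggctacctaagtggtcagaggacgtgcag

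Of regulators of mitochondrial biogenesis, 12 were tested and 0 had an unadjusted p under 0.05, with a median change of 0.01. Yy1 stood at 0.16 ± 0.12 and Gabpb1, the partner of GABPA, at 0.12 ± 0.12. Of the lists of related mitochondrial functions, 108 genes were on the array and 80 were tested. Of these 80, 0 had an adjusted p under 0.05, 2 were higher and 0 lower at an unadjusted p under 0.05, against 3.18% and 7.55% of all features, and the median was -0.04. The subunits encoded in mitochondrial DNA are not analysed here.

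Cox18, which inserts a core subunit of complex IV into the inner membrane, was the first of the 2. Its signal was 0.34, 0.40 and 0.38 in wild-type and 1.07, 1.12 and 0.65 in knockout mice, without overlap. The change was 0.57 ± 0.15, with an unadjusted p of 0.00746 and an adjusted p of 0.290. Fh1, the fumarase that acts on the product of complex II, was the other, at 1.99, 1.94 and 2.01 against 2.29 and 2.35 in KO2 and KO3, with KO1 marked (0.34 ± 0.13, adjusted p = 0.432). The 12 tested genes of the tricarboxylic acid cycle had a median of -0.01. Of these 12, 3 did not overlap, where 18.0% of all features did not: Fh1 and Idh3a were higher and Idh3g was lower in knockout (-0.11 ± 0.11). Idh3a had 2 arrays a group, where groups separate more easily.

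The 12 tested assembly factors of complex I had a median of -0.06. Those with the smallest p-values, each lower without overlap, were Ndufaf1 at -0.29 ± 0.13, Ndufaf2 at -0.30 ± 0.15 and Ndufaf4 at -0.26 ± 0.17, with adjusted p-values of 0.499, 0.530 and 0.653. Ndufaf2 had 2 wild-type arrays and Ndufaf4 had 2 arrays a group, where groups separate more easily. Of the 12, 4 did not overlap, where 18.0% of all features did not and 12.5% were lower. The other gene without overlap, Ecsit, was higher in knockout (0.12 ± 0.12), where 5.56% of all features were. Among the 28 assembly factors of complexes II to V (median -0.07), Cox10, which acts in making the haem of complex IV, stood at -0.39 ± 0.18 and Cox16 at 0.21 ± 0.13. The 13 carriers and import genes had a median of 0.00. Slc25a4, an ADP/ATP carrier, stood at -0.29 ± 0.30, and Hspe1, the mitochondrial co-chaperonin, at 0.16 ± 0.13.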

How the data were processed

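RNA from colonic epithelium of 6 mice was measured on Agilent 1-colour arrays. The authors deposited 1 scanner file per array, holding spot intensity. Feature Extraction 11.5.1.1 made them per the file headers (10.7 per the submitters' processing notes). Background is already subtracted in the deposited intensity, with no scaling between arrays. In the authors' deposited series table, 99.7% of intensity values differed from the scanner files by under 0.01 on the log2 scale, so it is on the same linear scale and not centred, with column medians of 232, 236 and 249 in wild-type and 262, 230 and 243 in knockout mice. Of 62976 spots, 3671 control spots were left out. Marked spots (non-uniform, population outlier or by hand) were left out, log2 intensity was set against the 75th percentile of the array, and spots of a probe were averaged.

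A probe was tested when well above background on at least 3 of 6 arrays and unmarked on at least 2 arrays per group. The brightest probe stood for a gene. Probe accessions were matched to RefSeq symbols (GRCm38.p6, 33767 of 56605 probes). Knockout was compared with wild-type by limma 3.58.1 (lmFit, eBayes, two-sided, R 4.3.3, statmod 1.5.0, and version 1.17.8 of data.table) on 27916 features, with Benjamini-Hochberg adjustment at 0.05, and checked on simulated data. Errors are standard errors, from the 2 or 3 arrays a group on which a probe was unmarked. Among values given without a count, Atp5a1, Uqcrh, Cox10 and Idh3a had 2 arrays a group. Uqcrfs1 had 2 knockout arrays, and Ndufb4, Atp5mpl, Cox7a1 and Cox7a2 had 2 wild-type arrays. The number of arrays limits the precision. The design note and labels name separate mice. Subunit genes and lists were chosen with earlier results of these data known. Genes were named by complex: up to 3 per direction with the smallest p, core subunits, isoform pairs and untested genes, and up to 3 per pathway list, apart from 1 gene that is not reported here. Genes named only by their groups not overlapping, and Ndufs7 and the other genes with motifs, were chosen after their values were seen. The normexp alternative (offset 50) used the median spot signal, since the planned mean signal is not analysed here. Other alternatives changed the scaling, the filter, marked spots, probe choice, array weights, variance model, slide column, animal numbers and each array left out.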

Additional observations from a re-analysis of the deposited data

How the results depend on the processing

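No subunit gene had an adjusted p under 0.05 in limma under any of the 18 alternatives, and the lowest adjusted p over them was 0.0912, for Ndufa4l2 with the slide column as a covariate. In every fit with that covariate, WT3 and KO3 do not inform the genotype change, which rests on WT1, WT2, KO1 and KO2. The count at an unadjusted p under 0.05, 1 in the reported fit, was 0 after quantile normalization, against 9.75% of all features. It was also 0 for probes detected on all 6 arrays (10.3% of all features), a filter that takes out Ndufa4l2, detected on 5. Under normexp background correction it was 1 (8.29% of all features), but the gene was Cox8b in place of Ndufa4l2. It was 2 (Ndufa4l2 and Sdha) with the array median subtracted (9.94% of all features) and 2 with a trended, robust variance (9.95%). Genes without overlap, 4 in the reported fit, numbered 7 of 61 after quantile normalization, where 17.0% of all features did not overlap. The median pairwise correlation was 0.382 after quantile normalization and 0.290 with marked spots kept, there over 82 genes in place of 42. With the slide column as a covariate the median change was -0.091 over all subunit genes, -0.137 for complex III and -0.105 for complex V. Pathway genes at an unadjusted p under 0.05, 2 in the reported fit, numbered 1 without a filter on dim probes (8.34% of all features). They numbered 4 with array weights (17.4% of all features) and 5 with a trended, robust variance (9.95%). Apart from the removal of Ndufa4l2 by the filter for all 6 arrays, the cause was not tested in any of these.

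Leaving out 1 array at a time gave 0 to 0 genes past the adjusted threshold, 0 to 1 at an unadjusted p under 0.05, 3 to 16 without overlap and 1 to 2 pathway genes. Of all features in these fits, 6.71% to 16.2% had an unadjusted p under 0.05 and 22.6% to 38.3% did not overlap. The median change ran from -0.074 to 0.039 over all subunit genes, -0.075 to 0.044 for complex I, -0.041 to 0.191 for II, -0.065 to 0.065 for III, -0.087 to 0.039 for IV and -0.074 to 0.055 for V. Positive changes numbered 9 of 47 without WT3 (34.5% of all features) and 36 of 54 without WT1 (42.7% of all features). Of 836 values recomputed for 49 named genes, 50 changed sign, in 16 genes whose reported change is smaller than its standard error. Among these, Atp5a1 went from -0.04 to 0.19 with marked spots kept, where a brighter probe stood for the gene. The probe used before gave -0.02 with marked spots kept, so the sign changed with the probe. Uqcrfs1 went from 0.10 to -0.33 with the slide column as a covariate, a value that rests on WT2 and KO2 alone. No paired analysis was possible because the labels give no shared replicate numbers. With the series of animal numbers in the titles as a block, 0 subunit genes passed the adjusted threshold and 1 the unadjusted one (12.4% of all features). Signal near background limits Ndufa4l2 and Cox8b.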
